A study of Rattus norvegicus with 12 samples.

Results

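The T cell receptor chains and coreceptors were followed in the contused spinal cord of T cell-deficient and immunocompetent rats. They comprise 6 genes of the 17423 listed in the deposited tables, taken by their Rat Genome Database (RGD) identifiers. The receptor chains were Cd3d, Cd3e and Cd3g, and the coreceptors were Cd4, Cd8a and Cd8b. All 6 had a value above 0 in every group and none was marked as a failed estimate, so none was lost to these filters behind the ratios.

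On T cells, the antigen receptor is held in the membrane by the CD3 gamma, delta and epsilon chains, whose tails carry the tyrosine motifs that pass the signal into the cell. CD4 binds MHC class II and CD8 binds MHC class I, and both bring the kinase Lck to the engaged receptor. CD8 is found on cytotoxic T cells as a dimer of an alpha (Cd8a) and a beta (Cd8b) chain, and on other cells as a dimer of alpha chains. In the rat neither coreceptor is restricted to T cells: monocytes, macrophages and microglia can carry CD4, and NK cells and some activated macrophages can carry CD8 alpha. The CD3 chains are the stricter T cell genes of the group.

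RNA was measured in 12 female adult rats (16 to 18 weeks old at injury) in 4 groups of 3 rats. AN rats (athymic nude, Hsd:RH-rnu/rnu) carry the rnu mutation on both alleles, do not form a working thymus and have few mature T cells, and SD rats (Sprague-Dawley, Hsd:SD) are immunocompetent. Every rat received a moderate contusion of 200 kdyn and was sampled either 1 week later, called acute here, or 8 weeks later, called chronic. No uninjured cord thus stands beside these values. Chronic rats were also older than acute rats when sampled, and age cannot be told apart from time after injury. The 2 strains also differ in their genetic background, which cannot be told apart from the absence of a thymus in this design. The tissue was a 1-mm piece of cord through the lesion of animals perfused with saline, and its polyadenylated RNA was sequenced.

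The deposited FPKM (fragments scaled by the authors to transcript length and to sequencing depth) is 1 value for each group of 3 rats. No spread between rats can be given for any value below, no test was run, and differences are reported as sizes only. The number of fragments behind each gene is unknown. The ratio of AN to SD FPKM is given on the log2 scale, without a pseudocount, as the log2FC, and a difference of at least 2-fold was counted in either direction. In bulk tissue, fewer cells of a type and less RNA per cell cannot be told apart. As a check of the tissue, 4 of 10 spinal cord genes on a list of neuronal and glial markers could be named, all from a results-ordered source described below for the pathway genes, and all 4 were present. Their summed FPKM was 526.9 (SD) and 66.8 (AN) acutely and 585.1 (SD) and 210.6 (AN) chronically, so the sum over these 4 genes was lower in AN rats in both phases, as were Cd3d, Cd3g and Cd4, and Cd3e in the acute phase only. Whether this has a part in the results was not tested.

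In the acute phase, 4 of the 6 genes were at least 2-fold lower in AN rats (Cd3d, Cd3e, Cd3g and Cd4), Cd8a was at least 2-fold higher, and Cd8b was within 2-fold. In the chronic phase, none of the 6 was 2-fold apart. Of all genes with an FPKM above 0 in both strains, 19.1% were 2-fold apart in the acute phase (15.9% lower and 3.19% higher in AN rats) and 13.5% in the chronic phase. The median log2FC of the 6 genes was -1.41 acutely and -0.27 chronically, beside -0.04 and -0.0034 over all genes.

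**Figure D1:**
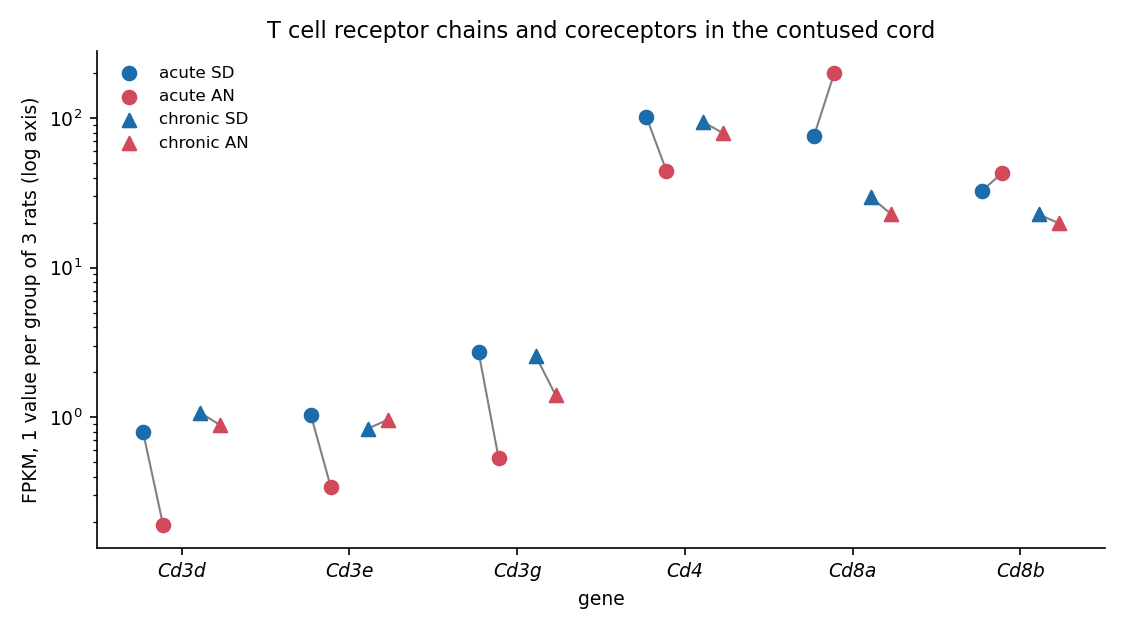
FPKM of the 6 genes (vertical log axis) in the 4 groups, with circles for the acute and triangles for the chronic phase, blue for SD and red for AN rats, and a grey line joining the strains of a phase. Each point is the authors' value for 3 rats and has no error bar. The CD3 chains sit between 0.189 and 2.74 and the coreceptors between 19.8 and 199, with Cd8a in acute AN rats the highest point.

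Cd3g, which encodes the gamma chain, was the most abundant CD3 transcript in all 4 groups. It was listed at 2.74 (SD) and 0.531 (AN) acutely and 2.58 (SD) and 1.40 (AN) chronically. Acute AN rats thus had the lowest of the values, 5.15-fold below acute SD rats (log2FC -2.37), and the chronic gap was 1.84-fold (log2FC -0.88). Cd3g was the only member of the 6 with a chronic gap above 1.5-fold. Among genes with a mean FPKM over the 4 groups from 1 to 10, 13.9% had a chronic log2FC as low as that of Cd3g.

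Cd3d encodes the delta chain. Its FPKM was 0.798 (SD) and 0.189 (AN) acutely and 1.07 (SD) and 0.884 (AN) chronically. The acute AN value was again the lowest, 4.22-fold below SD rats (log2FC -2.08), whereas the chronic values were 1.21-fold apart (log2FC -0.28).

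Cd3e encodes the epsilon chain, which pairs with both of the others. Its FPKM was 1.04 (SD) and 0.339 (AN) acutely and 0.837 (SD) and 0.962 (AN) chronically. The acute gap was 3.07-fold (log2FC -1.62). The chronic value was 1.15-fold higher in AN rats (log2FC 0.20), the only CD3 chain for which that was so.

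The size of these gaps has to be read against genes of like abundance, because genes listed at a low FPKM were often lower in acute AN rats. Of 1731 genes with a mean FPKM over the 4 groups from 0.1 to 1, the range of Cd3d and Cd3e, 38.7% were at least 2-fold lower in acute AN rats, with a median log2FC of -0.61. In that range 16.2% of genes had an acute log2FC as low as that of Cd3d, and 24.2% as low as that of Cd3e. Both therefore lay well within the spread of genes listed at their level. Of 3805 genes from 1 to 10, the range of Cd3g, 21.4% were at least 2-fold lower and 5.57% had a log2FC as low as that of Cd3g. With 1 FPKM added to both strains, Cd3d and Cd3e no longer passed 2-fold (log2FC -0.60 and -0.61) and Cd3g still did (log2FC -1.29).

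**Figure D2:**
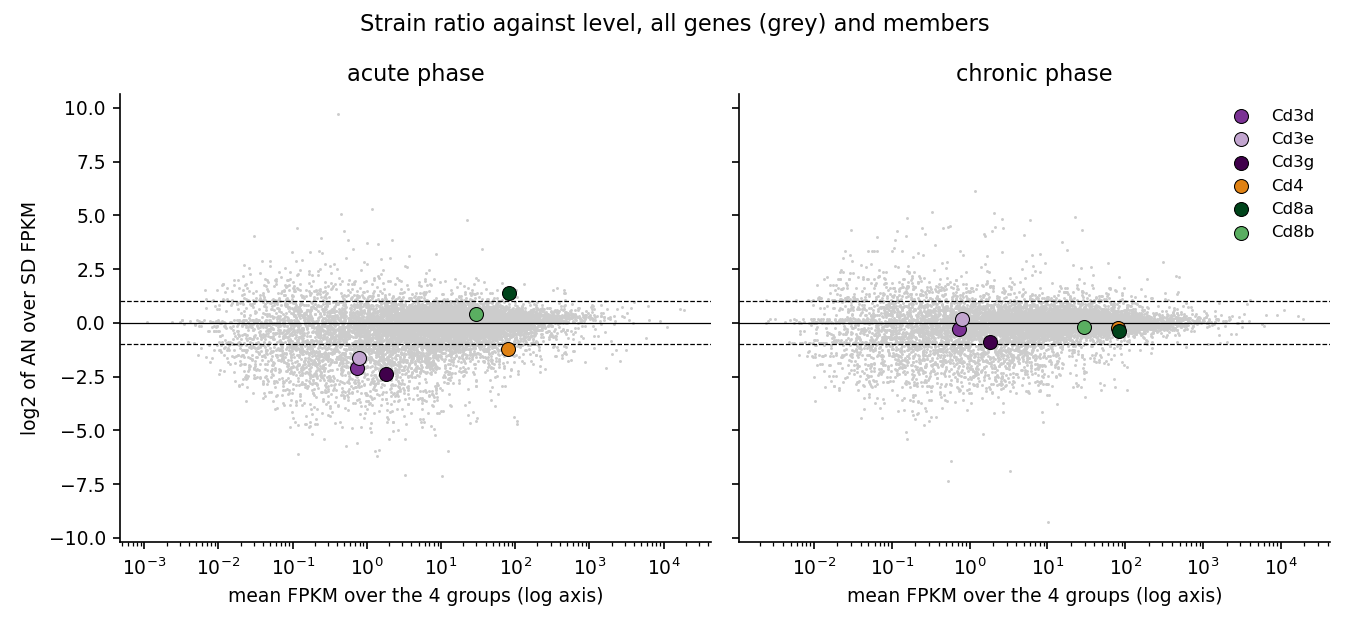
Log2 ratio of AN to SD FPKM (vertical axis) against the mean FPKM over the 4 groups (horizontal log axis) for all genes with a ratio (grey) and the 6 genes (colours), in the acute (left) and chronic phase (right), with dashed lines at 2-fold. In the acute panel Cd3d and Cd3e lie inside a broad cloud of lower values at low FPKM. Cd8a (log2FC 1.39), Cd4 (log2FC -1.20) and Cd3g (log2FC -2.37) lie nearer the edges. In their ranges of mean FPKM, 4.0% of genes were as low as Cd4 and 5.57% as low as Cd3g.

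Summed over the 3 chains, the CD3 FPKM was 4.58 (SD) and 1.06 (AN) acutely and 4.49 (SD) and 3.25 (AN) chronically. The AN sum was thus 23.2% of the SD sum acutely and 72.3% chronically. The SD sum hardly differed between the phases (chronic 0.981 times acute), and the AN sum was 3.06 times as high in the chronic as in the acute phase. By chain, the chronic value of AN rats was 4.67 times the acute value for Cd3d, 2.83 times for Cd3e and 2.64 times for Cd3g, against 1.35, 0.804 and 0.943 times in SD rats. Levels were normalized in separate tables for the phases, so these ratios are descriptions. Over genes with a mean FPKM of at least 1, the median log2 ratio of chronic to acute FPKM was 0.01 for SD and 0.03 for AN rats. That median leaves out the range of Cd3d and Cd3e, from 0.1 to 1. In that range, the median of the acute minus the chronic log2FC was -0.38 over 1691 genes.

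The make-up of the CD3 sum varied less than its size. Cd3g made up 59.8% (SD) and 50.1% (AN) of the sum acutely and 57.4% and 43.1% chronically. Cd3e made up 22.8% and 32.0% in acute SD and AN rats and 18.6% and 29.6% in chronic SD and AN rats, so its share was higher in AN rats at both times. The share of Cd3d was close between strains, at 17.4% (SD) and 17.9% (AN) acutely and 23.9% and 27.2% chronically.

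The 3 CD3 genes are neighbours. On RN4, the genome build of the tables, Cd3g lies on chromosome 8 from 47924369 to 47930550, Cd3d from 47932151 to 47936744 and Cd3e from 47947257 to 47958419. They span 34051 bases in all, with 1600 bases between Cd3g and Cd3d. The CD8 genes are also neighbours, with Cd8b on chromosome 4 from 104536454 to 104552683 and Cd8a from 104589922 to 104594159. The 2 loci are 37238 bases apart, and Cd4 lies elsewhere on chromosome 4, from 160988512 to 161014038. None of the 6 loci overlaps another locus of the tables.

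RefSeq's promoter table for GRCr8 holds 4 of the 6 genes, Cd3d, Cd3e, Cd3g and Cd8a. The 250 bases before the start site are shown for Cd3e and Cd8a, a receptor chain and a coreceptor whose acute values lay on opposite sides of equality. Both are written in the direction of transcription, and capitals mark every match, on either strand, to the E-box CANNTG, the cyclic AMP response core TGACGT, the GATA motif TGATAA, the TATA box TATAAA or the ETS core GGAAG. The Cd3e window is chr8:54211771-54212020 on the minus strand and the Cd8a window is chr4:104923866-104924115 on the plus strand, both on GRCr8 and not on RN4.
Cd3e: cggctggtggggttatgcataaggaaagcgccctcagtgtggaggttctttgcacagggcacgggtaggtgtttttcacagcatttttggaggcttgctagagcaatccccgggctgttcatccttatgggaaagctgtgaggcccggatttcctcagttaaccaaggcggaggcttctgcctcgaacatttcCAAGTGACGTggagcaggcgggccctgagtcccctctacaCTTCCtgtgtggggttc
Cd8a: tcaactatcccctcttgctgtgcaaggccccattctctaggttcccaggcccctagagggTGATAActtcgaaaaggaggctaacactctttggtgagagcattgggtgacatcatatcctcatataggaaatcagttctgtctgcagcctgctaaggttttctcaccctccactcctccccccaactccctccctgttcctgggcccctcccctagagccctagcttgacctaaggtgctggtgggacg

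The Cd3e window held an E-box that overlaps a cyclic AMP response core by 2 bases. The E-box ended 51 bases and the overlapping core 47 bases before the start site, and an ETS core on the opposite strand ended 12 bases before it. The Cd8a window held a GATA motif that ended 184 bases before the start site and no match to the other 4. No TATA box was found in the 4 windows. Of 33469 RefSeq windows of the same length, 65.5% held an E-box, 63.3% an ETS core, 12.9% a TATA box, 7.97% the GATA motif and 6.95% the cyclic AMP response core. The matches describe the letters of these windows only.

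Cd4 was the most abundant of the 6 transcripts in every group but acute AN. Its FPKM was 102 (SD) and 44.4 (AN) acutely and 94.0 (SD) and 79.0 (AN) chronically. Acute AN rats stood apart from the other groups, at 43.4% of acute SD rats (log2FC -1.20), and the chronic values were 1.19-fold apart (log2FC -0.25). In its range of mean FPKM, from 10 to 100, 5.65% of 6350 genes were at least 2-fold lower in acute AN rats and 4.0% had an acute log2FC as low as that of Cd4. Cd4 thus had a smaller acute gap than any CD3 chain and a less common one for its level.

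Cd8a followed another order. Its FPKM was 76.0 (SD) and 199 (AN) acutely and 29.5 (SD) and 22.8 (AN) chronically. The acute AN value was the highest of any member in any group, 2.62-fold above SD rats (log2FC 1.39), and the chronic AN value was the lowest for Cd8a (log2FC -0.37). Of 6350 genes with a mean FPKM from 10 to 100, 1.21% were at least 2-fold higher in acute AN rats, and 0.362% (23 genes, Cd8a among them) had a log2FC as high as that of Cd8a. In the chronic phase, Cd8a was the only gene of these 23 with a lower FPKM in AN than in SD rats. The cutoff was the value of Cd8a itself, and Lox fell just short of it with the same pattern (log2FC 1.38 acute and -0.49 chronic).

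Cd8b encodes the beta chain, the partner of the alpha chain in the CD8 dimer of cytotoxic T cells. Its FPKM was 32.5 (SD) and 42.9 (AN) acutely and 22.7 (SD) and 19.8 (AN) chronically. The order of the 4 groups was the same as for Cd8a, but the acute gap was 1.32-fold (log2FC 0.40) and the chronic gap 1.15-fold in the other direction (log2FC -0.20). In the same range of mean FPKM, 11.7% of genes had an acute log2FC as high as that of Cd8b.

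Across the phases, both CD8 chains were listed higher in the acute than in the chronic table in both strains. Cd8a was 8.74 times as high in AN rats and 2.58 times as high in SD rats. Cd8b was 2.17 and 1.43 times as high. Cd4 moved the opposite way in AN rats, where the chronic value was 1.78 times the acute, and it was 0.919 times the acute in SD rats. For all 6 genes the ratio between the phases was thus farther from 1 in AN than in SD rats. The share of all genes for which this held was not counted, so it cannot be read as particular to these genes.

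The difference between the acute and the chronic log2FC is a measure of how far the strain gap changed. It was -1.80 for Cd3d, -1.82 for Cd3e, -1.48 for Cd3g, -0.95 for Cd4, 1.76 for Cd8a and 0.60 for Cd8b. Of all genes with a ratio in both phases, 12.8% had a difference of at least 1 in size, and this share was 34.7% for genes with a mean FPKM from 0.1 to 1 and 4.06% from 10 to 100. Genes with a difference as low as that of the member made up 9.93% of its range for Cd3d, 9.58% for Cd3e, 4.15% for Cd3g and 3.51% for Cd4. A difference as high as that of Cd8a was found in 0.157% of its range (10 of 6350 genes), and as high as that of Cd8b in 2.9%.

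**Figure D3:**
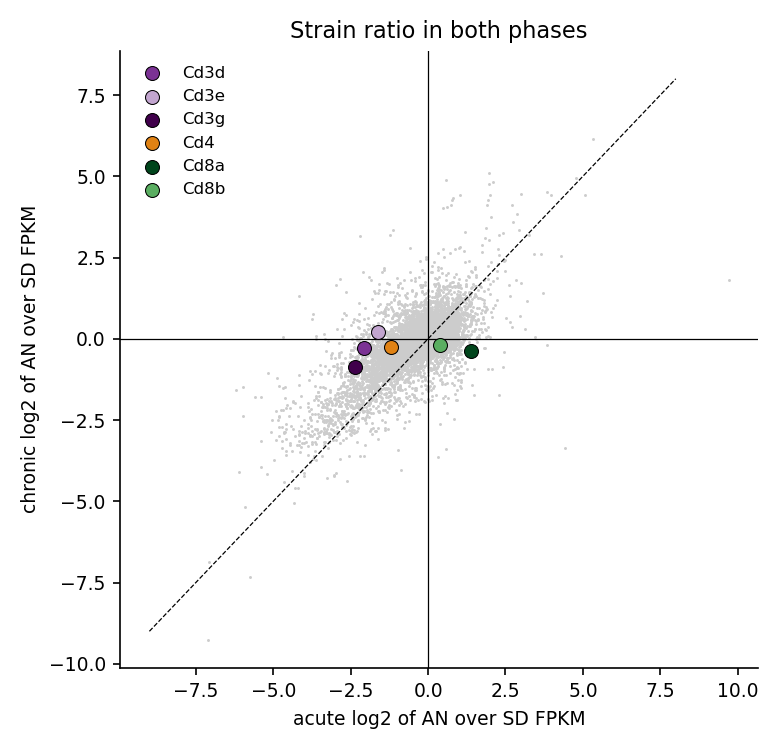
Acute (horizontal) against chronic (vertical) log2 ratio of AN to SD FPKM for genes with a mean FPKM of at least 0.1 (grey) and the 6 genes (colours), with a dashed line where both are equal. The CD3 chains and Cd4 lie to the left of 0, with chronic values from -0.88 (Cd3g) to 0.20 (Cd3e), and Cd8a lies to the right (acute 1.39, chronic -0.37).

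FPKM is scaled to transcript length, so levels of the members can be set against each other within a group. The coreceptors were far more abundant than the receptor chains they act with. The FPKM of Cd4 was 22.4 (SD) and 41.9 (AN) times the CD3 sum acutely and 20.9 (SD) and 24.3 (AN) times chronically. The 3 groups other than acute AN were close to each other in this ratio. Cd8a was 16.6 (SD) and 188 (AN) times the CD3 sum acutely and 6.56 (SD) and 7.01 (AN) times chronically. This ratio was 11.3-fold higher in AN than in SD rats in the acute phase and 1.07-fold higher in the chronic phase. Cd8b was 7.10 (SD) and 40.5 (AN) times the CD3 sum acutely and 5.06 (SD) and 6.09 (AN) times chronically. Acute AN rats thus had far more Cd8b per CD3 transcript than the other groups, as for Cd8a.

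Among all genes with an FPKM above 0, Cd4 lay at percentile 93.0 in acute SD and 82.2 in acute AN rats, and Cd8a at 90.3 and 96.7. The CD3 chains lay between percentiles 13.2 and 29.7 over the 4 groups. In the chronic phase Cd8a lay at percentile 74.4 in SD and 67.8 in AN rats.

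The alpha to beta ratio of CD8 (Cd8a over Cd8b FPKM) was 2.34 (SD) and 4.64 (AN) acutely and 1.30 (SD) and 1.15 (AN) chronically. The alpha chain was thus in excess in all 4 groups, least in the chronic phase and most in acute AN rats. The excess of Cd8a over Cd8b was 43.5 FPKM in acute SD and 156 in acute AN rats, against 6.74 and 3.00 in the chronic phase. Cd4 over Cd8a was 1.35 (SD) and 0.223 (AN) acutely and 3.19 (SD) and 3.47 (AN) chronically, so Cd8a exceeded Cd4 only in acute AN rats.

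**Figure D4:**
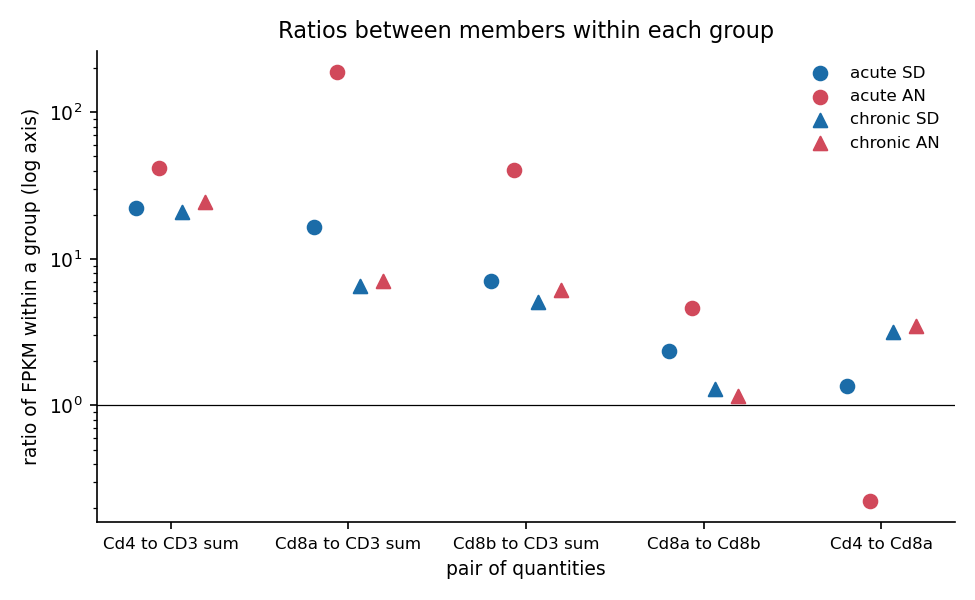
Ratios of FPKM between members within each group (vertical log axis), with circles for the acute and triangles for the chronic phase, blue for SD and red for AN rats. Acute AN rats stand apart in each ratio, with Cd8a at 188 times the CD3 sum and Cd4 at 0.223 times Cd8a.

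The other genes of the receptor pathway were taken from lists for receptor signalling (29 symbols), T cell surface proteins (28) and T lineage transcription factors (15). Symbols could be given to 6, 4 and 4 of these genes, and Lck, Zap70, Cd247, Cd2 and Cd5 are among those not analysed here. Of the 14 genes, 9 were named from a copy of the study's supplementary table that holds only its top rows, which are ordered by result, so their counts favour genes that differed. The other 5 (Cbl, Fyb1, Slamf1, Foxp3 and Ikzf1) were named from RefSeq synonyms alone. None of the 5 was 2-fold apart in either phase, beside 19.1% of all genes acutely and 13.5% chronically.

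Of the 6 signalling genes, none was 2-fold apart in either phase, and all 6 had a higher FPKM in acute AN than in acute SD rats (median log2FC 0.65 acute, 0.14 chronic). All 6 had a mean FPKM from 10 to 100, where 6.87% of all genes were 2-fold apart acutely and 3.4% chronically. In that range 53.9% of all genes were higher in acute AN rats, and 4 of the 6 came from the supplementary copy. Ptprc, the CD45 phosphatase of all leukocytes, was listed at 37.9 (SD) and 65.3 (AN) acutely and 25.4 (SD) and 37.7 (AN) chronically (log2FC 0.78 and 0.57). Lcp2, the adaptor SLP-76, had acute log2FC of 0.78 and Ptpn6, the phosphatase SHP-1, of 0.60. The ubiquitin ligases Cblb and Cbl had 0.70 and 0.32, and the adaptor Fyb1 had 0.34. These genes are used by myeloid cells as well as by T cells, and in the acute phase their values lay on the other side of equality from the CD3 chains.

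Of the 4 surface genes, 2 were at least 2-fold lower in acute AN rats, and both had a mean FPKM from 0.1 to 1, where 38.7% of all genes were. Pdcd1, the inhibitory receptor PD-1, was listed at 1.05 (SD) and 0.265 (AN) acutely and 0.938 (SD) and 0.421 (AN) chronically (log2FC -1.99 and -1.16). Lag3, an inhibitory receptor that binds MHC class II, was listed at 1.13, 0.369, 1.20 and 0.745 in the same order (log2FC -1.62 and -0.69). S1pr1, the receptor that lets lymphocytes leave lymphoid organs and is also made by endothelium and glia, had log2FC of -0.67 and -0.54, and Slamf1 had 0.20 and 0.52. Pdcd1 and Lag3 were thus listed at levels like those of Cd3d and Cd3e and lower in AN rats at both times.

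Of the 4 transcription factors, 2 were at least 2-fold lower in acute AN rats, Bcl11b in the range of mean FPKM from 0.1 to 1, where 38.7% of all genes were, and Tox in that from 1 to 10, where 21.4% were. Bcl11b, a factor of T lineage commitment that neurons also express, was listed at 0.523 (SD) and 0.142 (AN) acutely and 0.870 (SD) and 0.219 (AN) chronically (log2FC -1.88 and -1.99). Tox had log2FC of -1.20 and -0.47. Foxp3, the factor of regulatory T cells, was listed at 0.216 (SD) and 0.174 (AN) acutely and 0.294 (SD) and 0.213 (AN) chronically (log2FC -0.31 and -0.46). Ikzf1, the lymphoid factor Ikaros, had 0.32 and 0.21.

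Because CD4 and CD8 alpha are also carried by other cells in the rat, genes of those cells were set beside them. Of 22 macrophage and microglia symbols, 9 could be named (10 identifiers, of which 9 came from the supplementary copy). In the acute phase 3 of the 10 were at least 2-fold higher and 1 at least 2-fold lower in AN rats (median log2FC 0.70), and in the chronic phase 2 and 1 (median log2FC -0.04). Over all genes these shares were 3.19% higher and 15.9% lower acutely and 4.1% and 9.36% chronically. Their summed FPKM was 627 (SD) and 1037 (AN) acutely and 497 (SD) and 547 (AN) chronically. Itgam, the CD11b integrin, was listed at 63.2, 137, 43.7 and 58.3 in that order (log2FC 1.12 and 0.41), and the scavenger receptor Cd163 at 5.19, 20.1, 4.52 and 16.2 (log2FC 1.95 and 1.84). The other genes of the list are named after their values were seen. Cd14 (log2FC 1.17 and -0.03), Cx3cr1 (0.61 and -0.24), Siglec1 (0.66 and -0.12) and the more abundant of the Fcgr2b identifiers (0.70 and -0.04) were higher in AN rats acutely and slightly lower chronically, as was Cd8a. Mrc1 (0.95 and 1.24) and the other Fcgr2b identifier (0.70 and 0.45) were higher at both times. Lyz2, a lysozyme gene, had the largest ratios of the list, in the other direction (-4.19 and -4.60), and Tmem119, a microglial gene, was at -0.12 and -0.36. The summed level was thus higher in acute AN rats, as was Cd8a, while Cd4 was lower, and its part in either result was not tested.

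Of 21 NK cell symbols only Klra5 and Cd244 could be named, both from the supplementary copy, and the defining NK gene Ncr1 was not analysed here. Klra5, a Ly49 family receptor with near-identical copies among which reads can be split, was listed at 15.9 (SD) and 28.3 (AN) acutely and 15.8 (SD) and 24.3 (AN) chronically (log2FC 0.83 and 0.62). Cd244, a receptor of NK cells and some T cells, was listed at 1.57, 0.358, 1.06 and 0.391 (log2FC -2.13 and -1.44). The pair went in opposite directions, and their part in the Cd8a values was not tested.

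**Figure D5:**
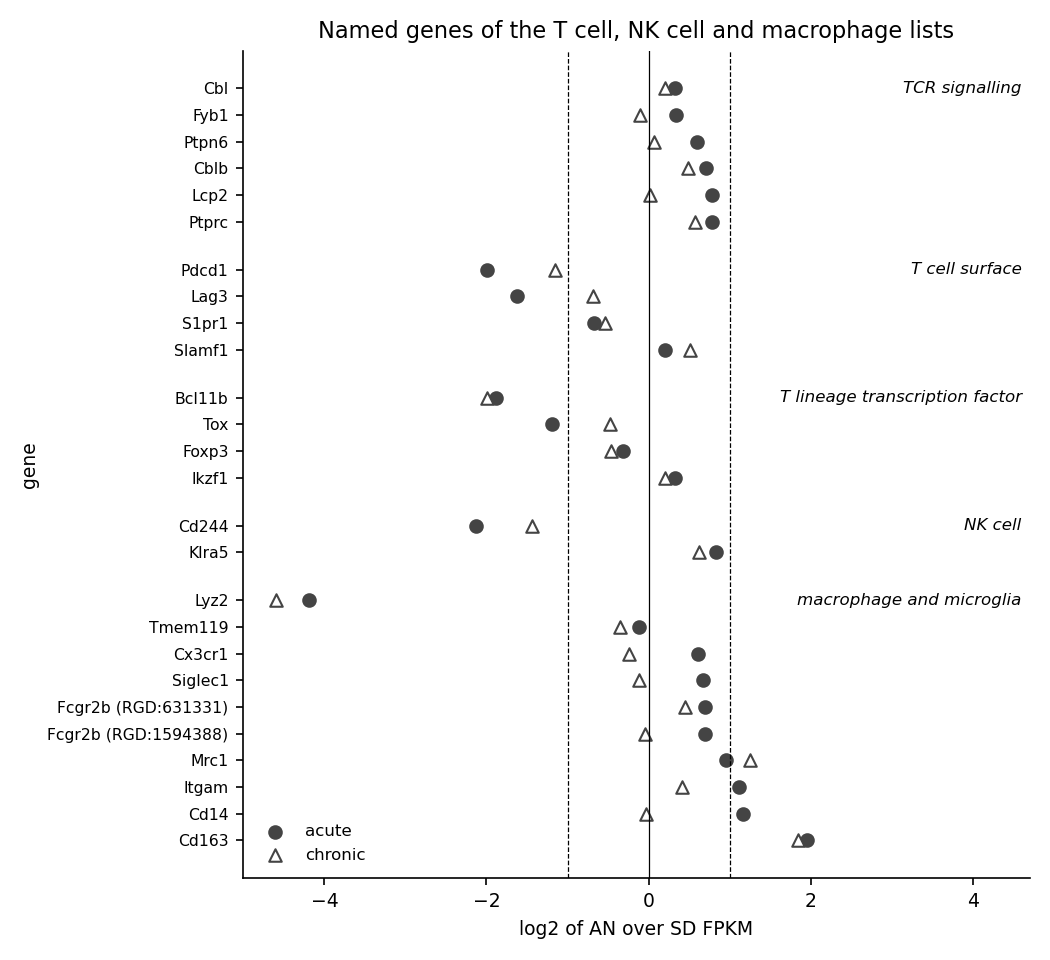
Log2 ratio of AN to SD FPKM (horizontal axis) of every named gene of the T cell, NK cell and macrophage lists (rows), with filled circles for the acute and open triangles for the chronic phase and dashed lines at 2-fold. All 6 signalling genes lie to the right of 0 in the acute phase, while Pdcd1, Lag3, Bcl11b and Tox of the T cell lists, Cd244 of the NK cell list and Lyz2 of the macrophage list lie to the left of the 2-fold line.

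For each member, the genes with the most similar values over the 4 groups were found as the smallest Euclidean distance between log2 FPKM centred over the groups. The search covered 12240 genes above 0.1 FPKM in all groups, of which 4140 have a symbol, and 4 points say little about a pattern. The nearest named genes were Dmrtc1b, Fam83f and Sult2b1 for Cd3d (distances 0.15 to 0.19), LOC681849, Sla2 and Cldn19 for Cd3e (0.15 to 0.22) and Krt2, Epha10 and Sprn for Cd3g (0.14 to 0.22). For Cd4 they were C1qtnf9, Ntng1 and Apc2 (0.05 to 0.10), for Cd8b Cirop, Fyb1 and Fam110a (0.04 to 0.12), and for Cd8a Lox, LOC691141 and Polq (0.10 to 0.29). Sla2, which encodes an adaptor of the Src-like family, was listed at 0.449 (SD) and 0.121 (AN) acutely and 0.340 (SD) and 0.364 (AN) chronically. Lox, the collagen cross-linking enzyme lysyl oxidase, was listed at 45.1, 117, 18.7 and 13.4.

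The members were not each other's nearest genes. Cd4 ranked 101 among all genes by distance from Cd3e (0.50), the closest of any pair of members. The distances among the CD3 chains lay between 0.82 and 0.93, with Cd3d at rank 405 from Cd3g. The pattern of Cd8a was 1.60 from that of Cd8b and between 3.18 and 4.33 from those of Cd4 and the CD3 chains.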

How the data were processed

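Polyadenylated RNA of 12 cord samples was sequenced as paired reads. Per the labels and the study's methods, the authors checked reads with FastQC, removed adapters with cutadapt, mapped reads to RN4 with TopHat 1.5.0, assembled transcripts with Cufflinks 0.0.6 using quartile normalization, pooled the transcripts of each time point with CuffMerge, and set the strains against each other with Cuffdiff. They deposited 2 tables with 1 FPKM per group of 3 rats. The tables also hold the authors' fold changes, test statistics and p-values, which were not used. Of the status column deposited by the authors, which holds words in place of measurements, only the mark for failed estimates was used, and 4 genes so marked were left out.

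Here the log2 ratio was computed without a pseudocount (Python 3.11.15, pandas 2.3.3, NumPy 2.4.6). No test was run, since each group has 1 value. The ratio, count and distance steps were tested on simulated data. The 6 identifiers were paired with symbols by the rule that defines the genes. Other symbols came from RefSeq synonyms for GRCr8 (3065 identifiers) or the supplementary table (1653), and 12699 identifiers had none. Table starts count from 0 and were raised by 1.

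The members and lists were chosen with earlier results of these data known. Named are all members, every named gene of the T cell lists, the defining genes of the other lists and the 3 nearest named genes of each member. The lists cover receptor signalling, T cell surface, T lineage factors, NK cells, macrophages and microglia, B cells, dendritic cells, mast cells, granulocytes and spinal cord. Alternatives were pseudocounts of 0.1 and 1, scaling to total FPKM, median centring, a 1.5-fold threshold and a minimum mean FPKM of 1.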

Additional observations from a re-analysis of the deposited data

How the results depend on the processing

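No result changed sign under any alternative tried. A pseudocount compresses the ratio of low values by construction. With 0.1 FPKM added, the acute log2FC was -1.63 for Cd3d and -1.38 for Cd3e, and the acute minus chronic difference was -1.38 and -1.56. With 1 FPKM added, the acute values were -0.60, -0.61 and -1.29 for Cd3d, Cd3e and Cd3g, the chronic value of Cd3g was -0.58, and the differences were -0.46, -0.70 and -0.71. The number of genes 2-fold apart in the acute phase was 5 and became 3 with 1 FPKM added, and also 3 when a mean FPKM of at least 1 was required, which leaves out Cd3d and Cd3e. In the chronic phase it was 0 at 2-fold and 1 at 1.5-fold. Scaling to total FPKM and median centring moved none of 20 values by 0.2 or more. No paired analysis was possible because the tables hold 1 value per group and the rats carry no shared numbers. For the same reason no rat could be left out. The fragments behind each value are unknown, which limits the CD3 chains most.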

Other observations

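Some genes of other antigen-presenting and lymphoid cells were also listed lower in acute AN rats, and those given here were chosen after their values were seen. Of 13 dendritic cell symbols 6 could be named, and 3 of them were at least 2-fold lower in acute AN rats. Siglech and Xcr1 had a mean FPKM from 0.1 to 1, where 38.7% of all genes were at least 2-fold lower, and Flt3 from 1 to 10, where 21.4% were. Siglech, a gene of plasmacytoid dendritic cells, was listed at 0.504 (SD) and 0.0959 (AN) acutely and 0.157 (SD) and 0.0210 (AN) chronically (log2FC -2.40 and -2.91). Flt3, the growth factor receptor of dendritic cell precursors, was listed at 2.73, 0.612, 3.22 and 1.84, and Xcr1, a chemokine receptor of cross-presenting dendritic cells, at 0.482, 0.135, 0.192 and 0.0919. Cd74, the MHC class II invariant chain, was listed at 168, 88.8, 268 and 260, so that acute AN rats were the lowest group, as for Cd4. Clec9a had log2FC of -0.24 and 0.31, and the integrin Itgax -0.07 and 1.24.

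Of 8 B cell symbols, Cd22 was listed at 10.4 (SD) and 3.52 (AN) acutely and 6.25 (SD) and 1.59 (AN) chronically, while Pax5 was listed at 0 in acute AN and chronic SD rats and below 0.1 in the others. Of 7 granulocyte symbols only Csf3r could be named, with log2FC of 0.60 and -0.14, and none of 7 mast cell symbols could be. All 4 named spinal cord genes were at least 2-fold lower in acute AN rats and 3 of them in the chronic phase, beside 15.9% and 9.36% of all genes. Snap25, a synaptic protein, was listed at 179, 6.79, 213 and 24.1.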
